A study of Homo sapiens with 3 samples.

Results

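The FOXO1 and FOXO3 transcription factors and 8 genes that FOXO factors induce, BCL6, CCNG2, CITED2, FBXO32, ERBB3, TXNIP, PIK3IP1 and SESN3, were followed in a pair of glioblastoma cell clones. The 10 genes were taken by name from 25006 named genes of the array, by a rule that uses no measured value, although earlier results of these data were known. They are read by 17 probes, 1 to 3 for each gene, and the brightest probe of a gene gives its value below. The clones come from U-87MG, an established human glioblastoma line (U87), and were selected with G418 after stable transfection. The U87WT 5 clone (U87WT) carries GFP-IGF1R, the IGF1 receptor fused to a green fluorescent protein, which enters the nucleus. The U87Mut 5 clone (U87Mut) carries GFP-IGF1R1025x-1100x-1120x, in which lysines were changed to arginines so that the receptor stays out of the nucleus. Both clones were studied in serum-free medium, with 50 nM IGF1, and with 50 nM IGF1 and 0.5 µM OSI906, a kinase inhibitor of the IGF1 and insulin receptors, for 24 h in each case. Another label of the inhibitor sample gives its dose as 500 µM. Each genotype is a single clone, and the cells also hold their own IGF1 receptor. Each condition was hybridized once, on 1 of 3 arrays, with U87WT in the Cy5 dye and U87Mut in the Cy3 dye.

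FOXO factors are forkhead transcription factors that bind DNA in the nucleus of resting or starved cells and switch on genes of cell cycle arrest, stress defence, protein breakdown and feedback on growth signals. When insulin or IGF1 activates PI3K and AKT, AKT phosphorylates FOXO proteins, which are then bound by 14-3-3 proteins and held in the cytoplasm, which lowers the transcription of their targets and need not change the factors' own messages. TXNIP, which restrains glucose uptake and binds thioredoxin, is also known to be controlled by sugar-sensing factors of the carbohydrate response element.

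The promoter sequences of TXNIP and BCL6 are shown because these are the genes with the largest differences below. They are taken from RefSeq on GRCh38.p14, each as the 250 bases before the annotated start, on the strand of the gene. TXNIP lies on the minus strand of chromosome 1 (chr1:145996580-145996829) and BCL6 on the minus strand of chromosome 3 (chr3:187745469-187745718). Capitals mark the forkhead site GTAAACA and the motif CACGAG, which is part of the carbohydrate response element.
TXNIP: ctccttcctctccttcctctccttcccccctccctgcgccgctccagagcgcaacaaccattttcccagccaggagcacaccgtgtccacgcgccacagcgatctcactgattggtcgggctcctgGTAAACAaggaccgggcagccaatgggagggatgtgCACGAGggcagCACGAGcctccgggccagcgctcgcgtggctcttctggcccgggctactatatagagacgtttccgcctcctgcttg
BCL6: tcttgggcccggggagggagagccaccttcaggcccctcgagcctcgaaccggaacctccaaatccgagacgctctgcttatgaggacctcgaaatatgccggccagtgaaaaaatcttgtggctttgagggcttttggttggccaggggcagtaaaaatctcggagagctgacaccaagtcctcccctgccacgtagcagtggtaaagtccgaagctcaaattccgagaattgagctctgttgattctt

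A set of 4 motifs was searched on both strands of windows of 300 bases, 250 before and 50 after each start, and none of the motifs contains another. Of all 35116 windows, 3.42% held the forkhead site GTAAACA, 4.92% the insulin response element CAAAACA, 7.26% the E box CACGTG and 6.78% the motif CACGAG. Windows were found for 8 of the 10 genes, 16 windows in all, and FBXO32 and ERBB3 had none. In TXNIP the forkhead site began 124 bases before the start, and 2 copies of CACGAG began 88 and 77 bases before it, with 5 bases between them. That spacing of 2 copies on the same strand was found in 2 of all windows, those of TXNIP and KCTD5, and was searched for after it was seen in TXNIP. The forkhead site was present in 2 of the 16 windows, from 2 of the 8 genes, TXNIP and PIK3IP1. The shares given above count windows, not genes. The PIK3IP1 site began 17 bases after an annotated start and read on the opposite strand of the gene. Both follow with 10 bases on either side, with the site in capitals, so that their flanks can be compared.
TXNIP: cgggctcctgGTAAACAaggaccgggc
PIK3IP1: tgctgttctgGTAAACAgcctctcttt

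CCNG2 and CITED2 held the E box, FOXO3 and a second window of BCL6 held 1 copy of CACGAG each, and 0 of the 8 genes held CAAAACA. The BCL6 window printed here held none of the 4 motifs. The windows of FOXO1 and SESN3 held none of them either. These are matches of letters in short windows, and binding was not measured.

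Levels are log2 intensities after background correction, normalization within each array by loess and between arrays by Aquantile. A clone ratio is the log2 ratio of U87WT over U87Mut within 1 array, and a response is the difference between arrays in the channel of 1 clone. A value past 0.5 or -0.5 was counted as a difference in size. Since each condition has 1 array, such a count carries no p value, and condition and array cannot be told apart, nor can clone and dye, since the dyes were not swapped. Spots of the 300 probes printed 10 times on an array varied with a median SD of 0.0467 to 0.0524 for the log2 ratio and 0.122 to 0.162 for a single channel, which covers the error within an array only. A set of 15346 genes that were well above background in all 6 channels served for comparison, and 9 of the 10 genes belong to it. SESN3 was well above background in 3 of 6 channels. As in any bulk RNA, a lower level in each cell and fewer expressing cells cannot be told apart.

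None of the 17 spots was marked as an outlier or as not uniform. Among markers of the line, VIM, NES, CD44 and FN1 were well above background in 6 channels, S100B in 2 and GFAP and SOX2 in 0. Of markers of other cell types, PTPRC, EPCAM and RBFOX3 were well above background in 6 channels, MBP in 4 and PECAM1 in 1. PTPRC and EPCAM were dim all the same. Their scanned brightness was 30 to 50 and 48.5 to 113.5, where the median background of the arrays was 21 to 22. That of RBFOX3 was 349 to 830. Some of these markers moved with the conditions or the clone. FN1 was lower with IGF1 by 1.16 in U87WT and 0.34 in U87Mut and higher with OSI906 by 1.41 and 0.53, VIM had clone ratios of 1.15, 0.29 and 0.77, and RBFOX3 was higher with OSI906 by 1.24 in U87WT. Their part in the results was not tested. The 1 probe of IGF1R, which reads the receptor's own message and possibly that of the vector, had clone ratios of 0.07, 0.23 and 0.09 in serum-free medium, IGF1 and IGF1 with OSI906.

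**Figure D1:**
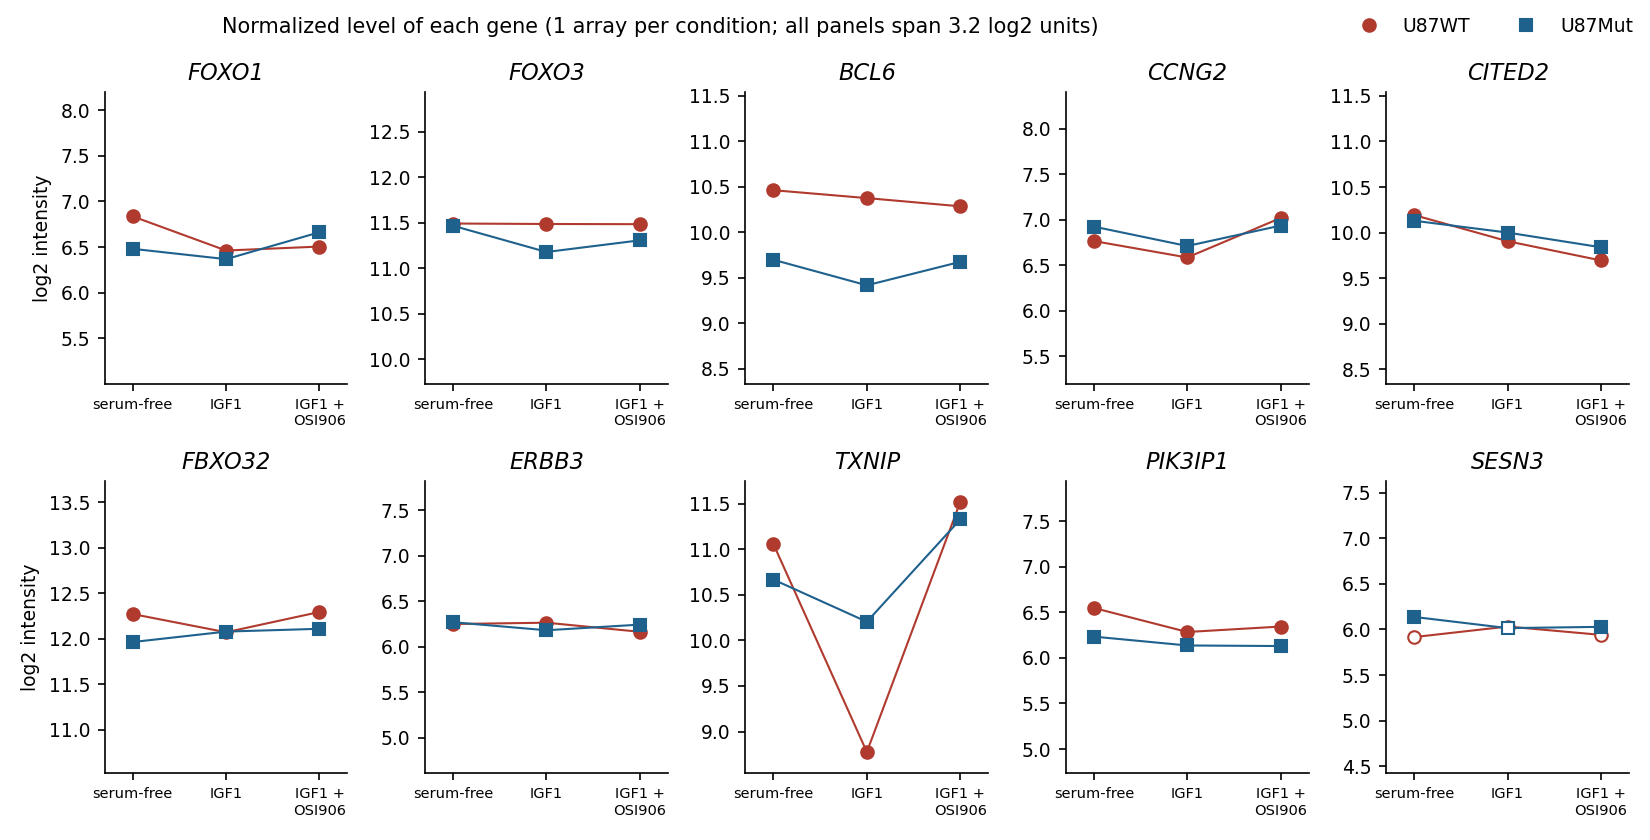
Normalized log2 intensity of each gene (vertical axis) in the 3 conditions (horizontal axis), for U87WT (circles) and U87Mut (squares), 1 array per condition, so without error bars. Open symbols are channels not well above background. Every panel spans the same number of log2 units. TXNIP drops to 8.78 in U87WT after IGF1, and BCL6 is higher in U87WT in all 3 conditions.

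Among the FOXO factors, FOXO3 was bright and FOXO1 was dim. FOXO1 had log2 intensities of 6.84, 6.46 and 6.51 in U87WT, in serum-free medium, with IGF1 and with IGF1 and OSI906, and of 6.48, 6.37 and 6.66 in U87Mut. The scanned brightness behind these values was 41 to 83 over a local background of 20 to 23, so the ranges of the clones overlapped close to background. The response to IGF1 was -0.37 in U87WT and -0.11 in U87Mut, neither of which reached -0.5. Its clone ratio was 0.36, 0.09 and -0.16 on the 3 arrays, with both signs.

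FOXO3 had log2 intensities of 11.49, 11.48 and 11.48 in U87WT and of 11.47, 11.18 and 11.31 in U87Mut. The U87WT values lay within the spot error of each other. The U87Mut value after IGF1 was lower than in serum-free medium by 0.29 (1.22-fold) for the brightest probe and by 0.19 for the second probe (10.97 and 10.78), while the third, dimmer probe went from 7.28 to 7.36. The 3 probes therefore disagreed on the direction in U87Mut. The clone ratio of the brightest probe was 0.02, 0.31 and 0.18, and its mean over the arrays did not pass the limma test (0.17 ± 0.06 SE, adjusted p = 0.225 in limma, 3 arrays). The second probe had ratios of 0.11, 0.32 and 0.31, and the third of 0.07, -0.14 and -0.13. The probes thus also disagreed on the sign of the clone ratio with IGF1 and with IGF1 and OSI906.

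FOXO4, a further member of the family, had clone ratios of 0.10, 0.44 and 0.14 and responses to IGF1 of 0.09 in U87WT and -0.26 in U87Mut. Thus 0 of these 3 FOXO factors had a response or a clone ratio past 0.5 in any condition, as processed here. Over all genes, a ratio above 0.5 was found for 5.75% to 7.32%, depending on the array. An IGF1 response below -0.5 was found for 2.72% in U87WT and 1.68% in U87Mut. With 3 genes, a count of 0 does not set them apart from these shares. The ratio of the dim FOXO1 was above 0.5 in 4 of 33 values over arrays and settings.

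TXNIP had by far the widest range of the 10 genes. Its scanned brightness in U87WT was 2323 in serum-free medium, 465 with IGF1 and 2877 with IGF1 and OSI906, and in U87Mut it was 1807, 908 and 2238. After normalization the log2 intensities were 11.06, 8.78 and 11.52 in U87WT and 10.67, 10.20 and 11.33 in U87Mut. The IGF1 value was the lowest of the 3 in both clones, and the value with the inhibitor was the highest.

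The IGF1 response of TXNIP was -2.28 in U87WT, a level 4.87-fold lower than in serum-free medium, and -0.46 in U87Mut, 1.38-fold lower. Among the 15346 genes it was the 4th lowest response in U87WT and the 343rd lowest in U87Mut. The response of U87WT minus that of U87Mut was -1.82 on the log2 scale, the 3rd lowest such difference, and 0.28% of the genes had a difference below -1. This difference equals that between the clone ratios of 2 arrays, which Aquantile leaves as they are, and with the median in place of loess within arrays it was -1.18. It was measured once and has no test. The U87Mut response itself passed -0.5 with the median within arrays (-0.79) and without normalization between arrays (-0.69).

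With OSI906 added to IGF1, TXNIP was higher by 2.74 in U87WT (6.70-fold) and by 1.12 in U87Mut (2.18-fold), the 4th and 21st highest of the 15346 genes. Its level under both agents was above that in serum-free medium by 0.46 in U87WT and 0.66 in U87Mut, or 1.38-fold and 1.58-fold. Only the value of U87Mut passed 0.5, as did 0.684% of all genes compared.

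The clone ratio of TXNIP changed sign between arrays. It was 0.39 in serum-free medium, -1.43 with IGF1, where U87WT was 2.69-fold below U87Mut, and 0.19 with IGF1 and OSI906. U87WT was thus the higher clone on 2 arrays and the lower clone on the IGF1 array. The ratio after IGF1 was the 37th lowest of the 15346 genes. The mean ratio over the arrays was -0.28 ± 0.38 (SE, adjusted p = 0.753 in limma), since that test takes the response to the treatments as error.

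**Figure D2:**
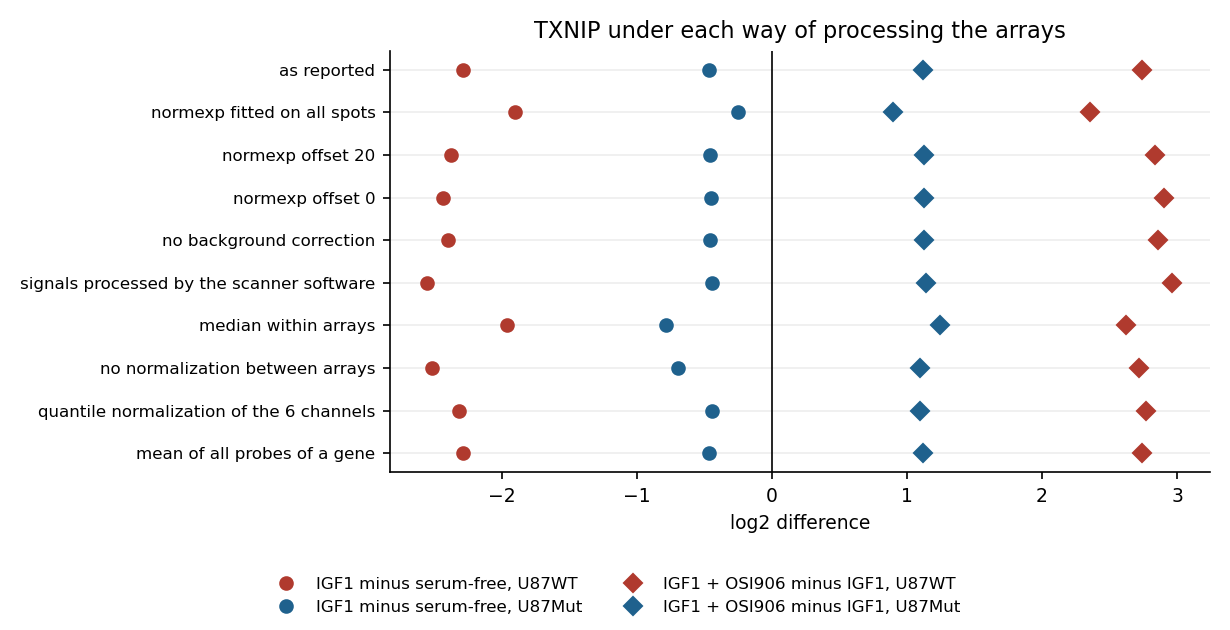
Log2 differences of TXNIP between conditions (horizontal axis) in U87WT and U87Mut under the reported processing and 9 others (vertical axis), 1 array per condition. Circles are IGF1 minus serum-free and diamonds IGF1 with OSI906 minus IGF1. The U87WT response stays between -2.55 and -1.90 and that of U87Mut between -0.79 and -0.25.

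Counted over the 10 genes, TXNIP was the 1 gene whose U87WT response to IGF1 was below -0.5, as for 2.72% of the 15346 genes, and in U87Mut 0 of 10 passed, against 1.68% of the genes. It was likewise the 1 gene above 0.5 with OSI906 in U87WT (3.73% of the genes) and in U87Mut (2.07%). A level after IGF1 that was over 0.5 below both other conditions was found for TXNIP in U87WT and for 0 of 10 genes in U87Mut, against 1.09% and 0.717% of the genes. With 10 genes, 1 call does not set the list apart from these shares.

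Leaving size aside, the 8 induced genes had a response to IGF1 below 0 in 6 cases in U87WT, with a median of -0.19, and in 7 cases in U87Mut, with a median of -0.13. Over all 15346 genes, 48.1% were below 0 in U87WT (median 0.01) and 57.8% in U87Mut (median -0.03). The difference made by OSI906 was below 0 for 4 of the 8 induced genes in U87WT and for 2 of 8 in U87Mut, with medians of -0.02 and 0.05. Over all genes 53.9% and 44.9% were below 0, with medians of -0.02 and 0.02. Most of these values were smaller than 0.229, the largest median spot SD of a channel scaled to a difference between 2 channels. That SD covers the error within an array only, while these are differences between arrays. For dim probes the spot SD of a channel was lower.

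**Figure D3:**
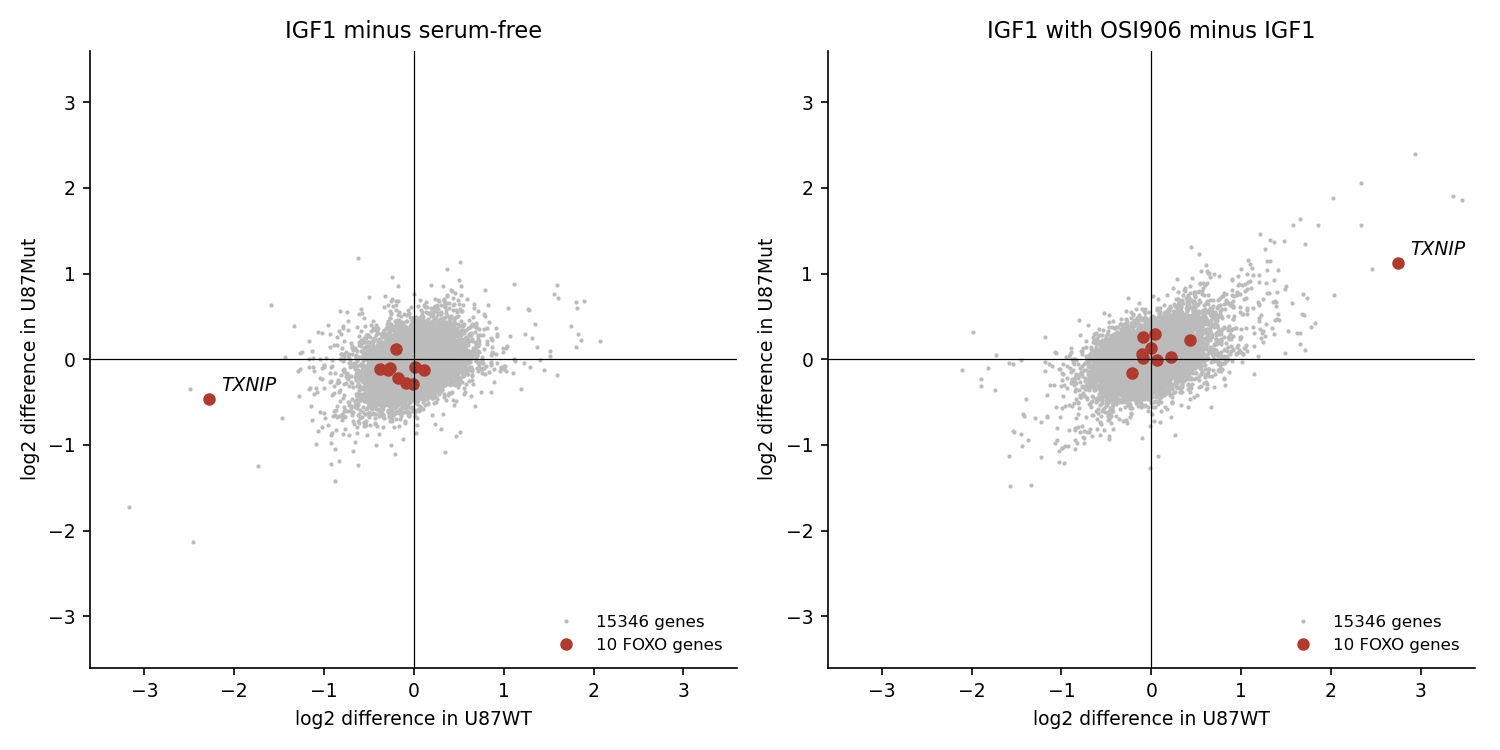
Log2 difference in U87Mut (vertical axis) against that in U87WT (horizontal axis) for 15346 genes well above background (grey) and the 10 FOXO genes (red), for IGF1 minus serum-free (left) and IGF1 with OSI906 minus IGF1 (right). In each panel 1 grey gene lies outside the axes. TXNIP stands at -2.28 and -0.46 on the left and at 2.74 and 1.12 on the right, and the other 9 genes lie inside the grey cloud.

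As processed here, BCL6 was the gene that differed between the clones in every condition. It encodes a transcriptional repressor known from germinal centre B cells, where it holds back arrest and differentiation genes. Its log2 intensities were 10.46, 10.37 and 10.28 in U87WT and 9.70, 9.42 and 9.67 in U87Mut, from a scanned brightness of 1495, 1499 and 1177.5 in Cy5 and of 904, 508 and 714 in Cy3. All 3 values of U87WT were above all 3 of U87Mut.

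The clone ratio of BCL6 was 0.76 in serum-free medium, 0.96 with IGF1 and 0.61 with IGF1 and OSI906, or 1.70-fold, 1.94-fold and 1.53-fold higher in U87WT. A ratio above 0.5 was found for 6.37% of the genes in serum-free medium, 7.32% with IGF1 and 5.75% with OSI906, and on all 3 arrays for 3.09%. BCL6 was the 1 gene of 10 above 0.5 on any of them. Its ratio after IGF1 was 0.43 with normexp fitted on all spots and 0.38 in the table the authors deposited, both below 0.5. With the median within arrays that ratio was 1.37, while the ratio in serum-free medium was 0.485, also below 0.5. The 1 gene below -0.5 was TXNIP after IGF1, as were 4.72% of the genes.

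Over the 3 arrays the mean clone ratio of BCL6 was 0.78 ± 0.07 (SE, 1.71-fold, adjusted p = 0.00976 in limma over 58174 probes), higher in 3 of 3 arrays. In that fit, limma called 4.28% of all probes higher and 4.15% lower in U87WT. A separate fit of the 27667 probes well above background in all channels called 5362, a larger share. Of the 10 genes, BCL6 was the 1 that passed in the fit of all probes. The call was lost when either the serum-free array or the array with OSI906 was left out (mean 0.78, adjusted p = 0.0646, and mean 0.86, adjusted p = 0.0569, both in limma), and kept without the IGF1 array (mean 0.69, adjusted p = 0.00603 in limma). Leaving out these arrays changed the calls over all probes from 4905 to 1159, 232 and 6033, in that order. The call was also lost with normexp fitted on all spots, an offset of 0, the median within arrays or the signals processed by the scanner software (adjusted p = 0.0628 to 0.365 in limma), with means of 0.60 to 0.84.

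Within each clone BCL6 changed little as processed here. Its response to IGF1 was -0.09 in U87WT and -0.28 in U87Mut, and the difference made by OSI906 was -0.09 and 0.26. As processed here, only in U87Mut did the IGF1 value lie below both others, by less than 0.5. Over all settings the response to IGF1 ran from -0.39 to 0.26 in U87WT and from -0.63 to -0.07 in U87Mut. The difference made by OSI906 ran from -0.27 to 0.23 in U87WT and from 0.05 to 0.43 in U87Mut.

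**Figure D4:**
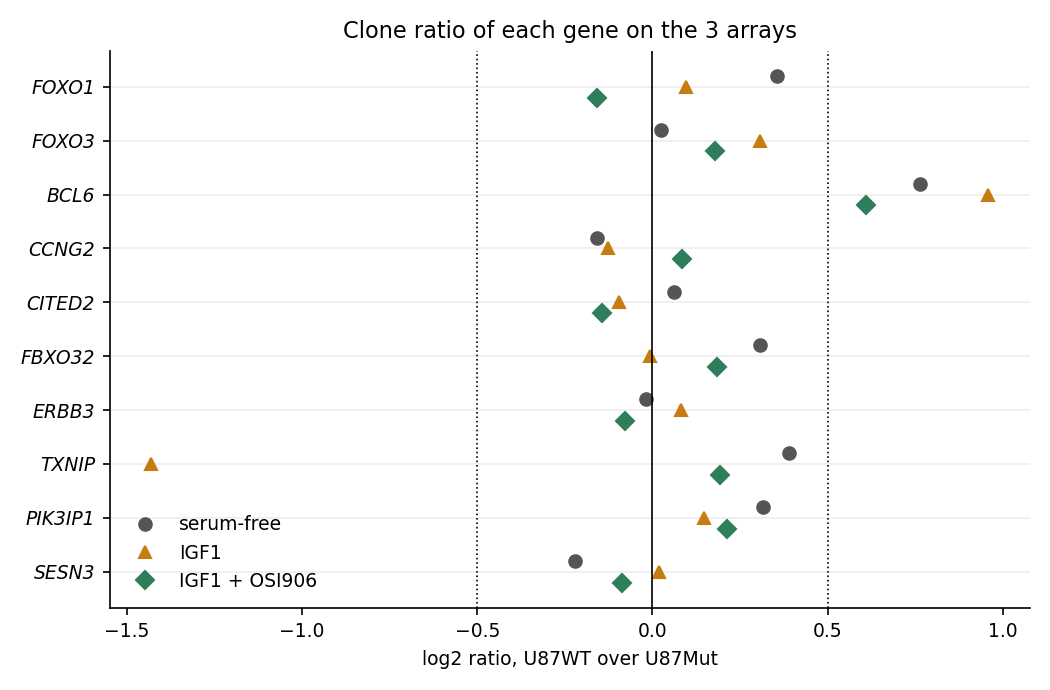
Log2 ratio of U87WT over U87Mut (horizontal axis) of each gene on the array of serum-free medium (circles), IGF1 (triangles) and IGF1 with OSI906 (diamonds), 1 value each. Dotted lines stand at 0.5 and -0.5. BCL6 lies above 0.5 on all 3 arrays and TXNIP below -0.5 after IGF1, and all other values lie between the lines.

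PIK3IP1 and ERBB3 act on the PI3K pathway itself. PIK3IP1, an inhibitor of the catalytic subunit of PI3K, was dim, with log2 intensities of 6.55, 6.28 and 6.34 in U87WT and 6.23, 6.14 and 6.13 in U87Mut. All 3 values of U87WT were above all 3 of U87Mut. Its clone ratio was 0.31, 0.15 and 0.21, with a mean of 0.23 ± 0.05 (SE, adjusted p = 0.0573 in limma), so it was higher in U87WT on 3 of 3 arrays without passing the test. An offset of 50 added to dim signals compresses their ratios, and with an offset of 20 the mean was 0.36 and passed (adjusted p = 0.0205 in limma). With an offset of 0 it was 0.63 and with the signals processed by the scanner software 0.97, without passing (adjusted p = 0.111 and 0.135 in limma).

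ERBB3, a receptor that recruits PI3K and is known to be induced when AKT is blocked, was close to background in both clones. The brightest of its 3 probes had log2 intensities of 6.25, 6.26 and 6.16 in U87WT and 6.27, 6.18 and 6.24 in U87Mut. The clones overlapped and no difference between conditions exceeded 0.10. Of its other probes, 1 was well above background in 1 channel and 1 in none, so a change of ERBB3 would have been hard to detect here.

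CCNG2, an atypical cyclin linked to cell cycle arrest, was dim as well. The brightest of its 3 probes had log2 intensities of 6.76, 6.58 and 7.02 in U87WT and 6.92, 6.71 and 6.93 in U87Mut. IGF1 gave the lowest value in both clones, by 0.18 and 0.21 against serum-free medium, and it was higher with OSI906 by 0.43 and 0.22, all short of 0.5. The second probe was lower with OSI906 in U87WT by 0.10 and the third higher by 0.08, so the probes disagreed.

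CITED2, which binds the coactivators CBP and p300 and limits hypoxia signaling, had log2 intensities of 10.19, 9.91 and 9.69 in U87WT and 10.13, 10.00 and 9.84 in U87Mut. In both clones the order was serum-free medium, IGF1, and IGF1 with OSI906, so the value of the brightest probe was lowest with the inhibitor. The second probe was lowest after IGF1 in U87WT (6.86, 6.60 and 6.67) and nearly flat in U87Mut (6.69, 6.69 and 6.69). The value with both agents was below that in serum-free medium by 0.50 (1.41-fold) in U87WT, just short of the limit (-0.498), and by 0.29 in U87Mut. For the second probe that difference was -0.20 in U87WT and -0.00 in U87Mut.

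FBXO32 encodes atrogin-1, a ubiquitin ligase of muscle wasting, and was the brightest of the 10 genes. Its log2 intensities were 12.27, 12.07 and 12.29 in U87WT and 11.96, 12.08 and 12.11 in U87Mut. U87WT was lower with IGF1 than in both other conditions, by 0.20 and 0.22, whereas in U87Mut the value after IGF1 was higher than in serum-free medium by 0.11. None of these differences exceeded 0.229, the spot SD scaled to a difference between 2 channels, which leaves out the error between arrays. The clone ratio was 0.31, -0.01 and 0.18.

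SESN3, a stress protein that restrains mTORC1, was at the limit of detection, with a scanned brightness of 25 to 34 over a background of 20 to 22. In U87WT it was well above background with IGF1 only, and in U87Mut in the other two conditions. The measured clone ratio was -0.22 in serum-free medium, 0.02 with IGF1 and -0.09 with IGF1 and OSI906. On each array the lower channel was not well above background. No direction of a response or of a clone difference can be read from values this close to background.

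The other 28 genes on a list of FOXO targets were read in the same way, and 23 were well above background in all channels. Their median response to IGF1 was 0.04 in U87WT and -0.06 in U87Mut over these 23 genes. IGF1 gave a level over 0.5 below both other conditions for 2 of the 28 in U87WT, SOD2 and MXI1, and for 1 in U87Mut, SOD2, beside 1.09% and 0.717% of all genes. SOD2, the mitochondrial superoxide dismutase, had log2 intensities of 13.67, 12.90 and 14.28 in U87WT and 12.51, 11.91 and 12.58 in U87Mut, so both clones shared the low value after IGF1. Its response was -0.77 in U87WT and -0.60 in U87Mut, and OSI906 made a difference of 1.38 and 0.67. MXI1, which antagonizes MYC, was lower with IGF1 by 0.51 in U87WT and by 0.12 in U87Mut, and with OSI906 it was higher by 0.56 in U87WT and lower by 0.14 in U87Mut. CDKN1B, the p27 inhibitor of cyclin-dependent kinases, had responses of -0.47 and -0.04, with a difference by OSI906 of 0.76 and 0.31.

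Between the clones, limma called 6 of the 28 genes higher and 5 lower in U87WT, beside 4.28% and 4.15% of all probes in the same fit. That fit also holds many dim probes, and a separate fit of the 27667 probes well above background in all channels called 5362. SOD2 was higher in U87WT on all 3 arrays (1.16, 0.98 and 1.70, adjusted p = 0.0140 in limma), as was CAT, the catalase gene (0.69, 0.72 and 0.98, adjusted p = 0.00809 in limma). GADD45A, a DNA damage response gene, was lower in U87WT (-0.87, -1.17 and -1.02, adjusted p = 0.00483 in limma), and so was KLF2, a transcription factor of quiescence (mean -0.82, with the sign shared by 3 of 3 arrays, adjusted p = 0.0114 in limma). The list thus held genes of both directions. The limma calls of genes on this list and the lists below were not checked with an array left out or under other processing. PCK1 of this list is not read, since its spot on the IGF1 array was marked as not uniform, with a local Cy5 background of 601.

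Upstream of FOXO, 22 genes of the PI3K and AKT pathway were on a second list. Limma called 5 higher and 1 lower in U87WT, beside 4.28% and 4.15% of all probes. Of the 22 genes, 21 were well above background in all channels. The separate fit of such probes called 5362 of 27667, a larger share than that of all probes. PIK3R1, a regulatory subunit of PI3K, had clone ratios of 1.00, 0.58 and 0.38 (adjusted p = 0.0487 in limma), with a response to IGF1 of -0.69 in U87WT and -0.28 in U87Mut. PIK3R2, another such subunit, had ratios of 0.35, 0.49 and 0.40 (adjusted p = 0.0121 in limma). INPP4B, a lipid phosphatase, was higher (0.39, 0.28 and 0.64, adjusted p = 0.0392 in limma) and MAPKAP1, a subunit of mTORC2, was lower (-0.40, -0.30 and -0.37, adjusted p = 0.0124 in limma). IRS1 is the adaptor of the insulin and IGF1 receptors. It was the 1 gene of this list that lay over 0.5 below both other conditions after IGF1, in both clones. Over all genes compared, 1.09% met this rule in U87WT and 0.717% in U87Mut. The log2 intensities of IRS1 were 8.37, 7.75 and 8.45 in U87WT and 8.15, 7.50 and 8.50 in U87Mut. Its responses of -0.62 and -0.65 were nearly equal, unlike those of TXNIP.

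Of 17 genes for proteins that bind or modify FOXO, limma called 2 higher and 0 lower in U87WT, beside 4.28% and 4.15% of all probes. All 17 were well above background in all channels. The separate fit of such probes called 5362 of 27667, a larger share than that of all probes. The rule for a low level after IGF1 was met by 0 of the 17 in either clone, beside 1.09% of all genes in U87WT and 0.717% in U87Mut. The 2 were CREBBP, the acetyltransferase CBP (0.27, 0.56 and 0.36, adjusted p = 0.0351 in limma), and YWHAB, a 14-3-3 protein (0.24, 0.25 and 0.28, adjusted p = 0.0187 in limma). YWHAQ, another 14-3-3 protein, had ratios of -0.37, -0.15 and -0.63 (adjusted p = 0.102 in limma).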

How the data were processed

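The intensities deposited are unnormalized scanner output, per the file headers spot medians with the medians of the surrounding background for Cy5 and Cy3, beside intensities that the scanner software had processed. The authors deposited log2 ratios of U87WT over U87Mut, background-corrected and normalized with limma, used here as an alternative only. Over all probes they correlated with the ratios used here at 0.986 and 0.973 in serum-free medium and with OSI906, but at 0.565 on the IGF1 array. Each array had 62976 spots, none saturated, and the number of arrays limits the precision.

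The analysis used limma 3.58.1 and the data.table package (1.17.8) under R 4.3.3. Normexp with an offset of 50 was fitted without the spots marked as not uniform (384, 572 and 5 per array), because the IGF1 array holds a bright patch (background SD of 701 with them, 1.32 without). Loess and Aquantile followed, and repeated spots were averaged into 58201 probes. Spots marked as outliers were left out. RefSeq transcripts named 34892 probes. Clone ratios over the 3 arrays were tested with lmFit and eBayes and Benjamini-Hochberg at 5%. Arrays were grouped by their labels, and nothing shows separate cultures behind them.

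All 10 genes are named. From each other list up to 4 genes with the largest ratio of 1 sign and up to 4 with the deepest level after IGF1 were fixed by rule, from which a selection is described. Of the genes so fixed, 1 is not reported here. The genes, lists and tests were chosen with earlier results of these data known. The steps were tested on simulated data. Python 3.11.15, pandas 2.3.3, numpy 2.4.6 and matplotlib 3.10.9 were used for counts and plots.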

Additional observations from a re-analysis of the deposited data

How the results depend on the processing

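Counts of the 10 genes past 0.5 in either direction depended on the processing, and FOXO1, PIK3IP1 and SESN3 were among the genes that crossed the limit. In order, the counts are for the clone ratio in serum-free medium, after IGF1 and with OSI906, then for the IGF1 response and the OSI906 effect in U87WT and U87Mut, then for IGF1 with OSI906 against serum-free medium in U87WT and U87Mut, and as reported they were 1, 2, 1, 1, 0, 1, 1, 0 and 1. With the signals processed by the scanner software they were 6, 4, 3, 4, 2, 3, 3, 4 and 3. With an offset of 0, chosen after seeing the data, they were 4, 3, 2, 3, 1, 2, 2, 2 and 1, and without background correction 3, 2, 1, 2, 0, 2, 2, 1 and 1. An offset of 20 gave 2 in the U87WT response, 2 in the U87WT effect of OSI906 and 1 in U87WT under both agents. With the median within arrays the ratios gave 0 and 4 on the first 2 arrays, the U87Mut response 3, and both agents 1 in U87WT and 0 in U87Mut. Without normalization between arrays the responses gave 3 and 2, and both agents 1 in U87WT. With normexp fitted on all spots the ratio after IGF1 gave 1. A limit of 1 gave 0, 1 and 0 for the ratios and 0 for both agents in U87Mut. The share of all genes past the limit was not computed under these alternatives. A higher count under one of them is therefore not a result about the 10 genes.

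A low level after IGF1 in U87Mut was counted for 0 genes as reported, for 1 (TXNIP) with the median within arrays or no normalization between arrays, and for 1 (SESN3) with the scanner's signals. The count in U87WT stayed at TXNIP alone under every alternative run. The limma test called 1 gene as reported, 2 (BCL6 and PIK3IP1) with an offset of 20 or no background correction, and 0 with normexp on all spots, an offset of 0, the scanner's signals or the median within arrays. The count ranged from 0 to 2 when each array was left out in turn. No called value of a gene changed sign. The clone ratio of BCL6 was above 0 in 33 of 33 values over arrays and settings, and above 0.5 in 30. The ratio of PIK3IP1 was above 0 in 33 of 33. The causes of these moves were not tested. The alternative on the mean signal of a spot was not run, because the scanner files used here hold spot medians. No paired analysis was possible because the conditions share only 1 replicate number, while the clones are already paired within each array by the ratio that limma tests.

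Dim signals limit FOXO1, CCNG2, ERBB3, PIK3IP1 and SESN3, whose ratios an offset compresses.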

Other observations

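ARRDC4, a relative of TXNIP in the arrestin family, was looked up after the values of TXNIP were seen. Its log2 intensities were 7.56, 7.08 and 7.64 in U87WT and 7.62, 7.71 and 7.93 in U87Mut, in serum-free medium, with IGF1, and with IGF1 and OSI906. The response to IGF1 was -0.48 in U87WT and 0.09 in U87Mut, and the difference made by OSI906 was 0.56 and 0.22. The clone ratio was -0.06, -0.63 and -0.29, lowest on the IGF1 array as for TXNIP. On that array 4.72% of the genes compared had a ratio below -0.5. These are single values from 1 probe, without a test. Other genes of this family did not all follow. ARRDC1, ARRDC2 and ARRDC3 had responses to IGF1 of -0.08, 0.28 and -0.22 in U87WT. In U87Mut their responses were 0.05, -0.10 and -0.24.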
